A study of Mus musculus with 6 samples.

Results

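The genes described here are the ER chaperones and the genes of the unfolded protein response: 35 genes chosen by their known function, out of 17441 genes that had a value in at least 1 library. They were chosen with earlier results of these data known. All 35 were listed in every library and all 35 passed the filter on low values, a level of at least 1 FPKM (fragments relative to transcript length and to the fragments of the library) in 2 or more libraries, which left 13120 genes for testing. RNA came from heart tissue below the ligature of male mice on a C57BL/6 background, 12 weeks old, 3 days after surgery. There were 3 groups of 2 libraries: wild-type mice after a sham operation (WT Sham), wild-type mice after the left anterior descending artery was tied off (WT MI), and mice labelled *Card9* KO after the same ligation (*Card9* KO MI). A sham group of *Card9* KO genotype was not analysed here. The effects of genotype and of infarction therefore cannot be told apart where *Card9* KO MI is set beside WT Sham.

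*Card9* itself was no lower in the group that carries the knockout label, since it was listed at 0.99 and 1.03 FPKM in WT Sham, at 3.39 and 5.08 in WT MI, and at 9.85 and 6.94 in *Card9* KO MI. Where in the gene the deletion lies, and so whether its FPKM should fall, is not stated in the sources used here, and the group is named below only by its label. The files list between 14935 and 15852 genes per library, and the depth estimated from the spacing of low values was 3020000 to 4280000 fragments per library, so that 3 fragments of a 2 kb transcript equal 0.35 to 0.497 FPKM. Cardiomyocyte markers had a summed level of 41708 and 43741 FPKM in WT Sham, of 24219 and 23981 in WT MI, and of 19796 and 22543 in *Card9* KO MI. In bulk tissue, fewer cells of a type and less RNA per cell cannot be told apart.

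Proteins that enter the secretory pathway are folded in the endoplasmic reticulum (ER) by chaperones, by lectins that hold glycoproteins, and by disulfide isomerases, and those that fail to fold are exported and degraded. When unfolded proteins accumulate, 3 sensors in the ER membrane start the unfolded protein response: IRE1 splices the mRNA of *Xbp1*, PERK phosphorylates eIF2alpha and so favours translation of ATF4, and ATF6 is cut in the Golgi to release a transcription factor. XBP1 and ATF6 act on chaperone and degradation genes through the ER stress element (ERSE), whereas ATF4 acts on amino acid and CHOP-pathway genes through composite elements (CARE). In the infarcted heart, fibroblasts that lay down collagen are known as highly secretory cells. Splicing, phosphorylation and cleavage are not measured by FPKM per gene, so the values below are mRNA levels of the genes and not the activity of the sensors.

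The stress elements were first looked for in the promoters, because they show which members carry the sequence through which these factors act. RefSeq promoter windows (GRCm38.p6, from 250 bases before to 50 bases after the annotated start) were matched for 30 of the 35 members, and none was given for *Hyou1*, *Manf*, *Atf6*, *Fkbp10* and *Creb3l1*. The ERSE (CCAAT, 9 bases of any kind, CCACG, searched on both strands) was present in 8 members, *Hspa5*, *Calr*, *Hsp90b1*, *Canx*, *Pdia6*, *Dnajc3*, *Creld2* and *Syvn1*, and in 0.119% of all 32851 promoter windows. *Hsp90b1* held 2 of them. Those of 4 members are shown with 10 bases on either side, 5′ to 3′ in the orientation of the motif and with the fixed bases in capitals.
*Hspa5*, chr2:34772015-34772053, plus strand: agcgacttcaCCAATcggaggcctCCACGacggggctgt
*Calr*, chr8:84847065-84847103, plus strand: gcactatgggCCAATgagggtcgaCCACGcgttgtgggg
*Pdia6*, chr12:17266481-17266519, plus strand: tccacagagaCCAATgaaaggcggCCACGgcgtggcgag
*Canx*, chr11:50325790-50325828, minus strand: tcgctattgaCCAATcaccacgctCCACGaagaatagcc

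The related ERSE-II (ATTGG, 1 base, CCACG) was found in *Herpud1* and *Dnajb11*, against 0.0365% of all windows, and the CARE (TGATGNAAN) in *Chac1*, *Trib3*, *Asns* and *Herpud1*, against 3.95%. The unfolded protein response element (TGACGTGG) was in no member's window and in 0.676% of all. *Herpud1* was the member with matches to both an ER stress element and a CARE, shown here with that of *Asns*, with the motif in capitals.
*Herpud1* ERSE-II, chr8:94386367-94386397, plus strand: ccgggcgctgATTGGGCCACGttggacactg
*Herpud1* CARE, chr8:94386306-94386334, minus strand: gggtgcgggcTGATGCAACccgccgtggt
*Dnajb11* ERSE-II, chr16:22857847-22857867, plus strand: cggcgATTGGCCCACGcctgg
*Asns* CARE, chr6:7693214-7693242, minus strand: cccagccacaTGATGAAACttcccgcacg

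No match overlapped another motif. A match is a description of these letters and not evidence that a factor bound there in these hearts.

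**Figure D1:**
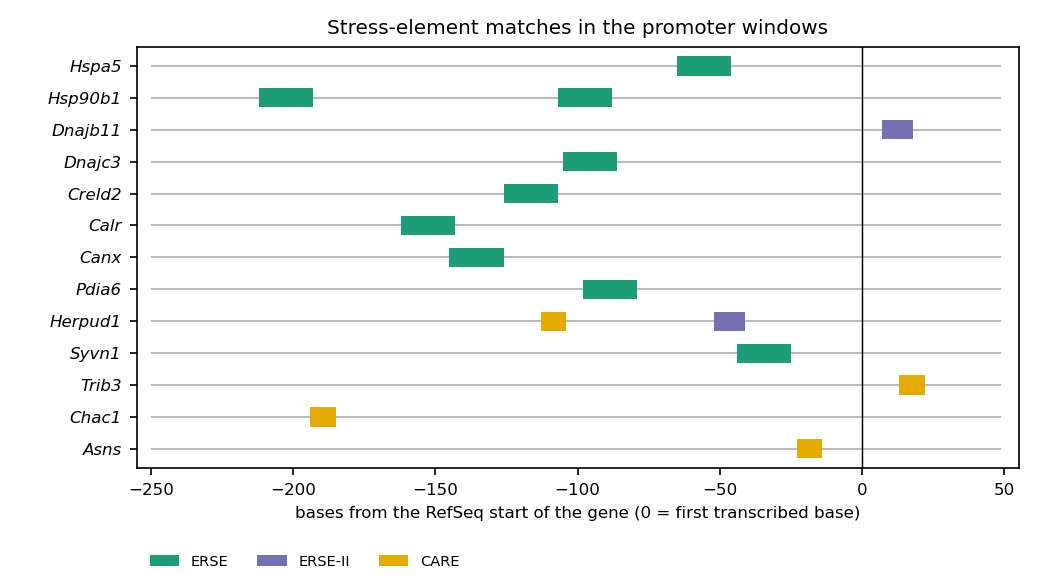
Positions of the motif matches in the RefSeq windows of the 13 members that hold one, in bases from the annotated start (x axis), 1 row per gene; green boxes are ERSE, purple ERSE-II and yellow CARE. The ERSE of *Hspa5* begins at -65 and those of *Hsp90b1* at -212 and -107, and the CARE of *Trib3* and the ERSE-II of *Dnajb11* lie after the start.

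To ask how the ER folding genes responded to infarction, WT MI was compared with WT Sham by limma on log2(FPKM + 1) over all 13120 genes. Of the 35 members, 24 were called higher in WT MI, at an adjusted p below 0.05, where 27.7% of all tested genes were called higher. None of the members was called lower, where 9.39% of all genes were, although 2 of them (*Atf6* and *Herpud1*) were lower at an unadjusted p below 0.05, as were 1684 of all genes (12.8%). The median log2 fold change was 0.76 over the members and 0.19 over all genes, and 28 of the 35 members had a positive value, against 64.4% of all genes. The summed FPKM of the members was 1496 and 1359 in WT Sham and 2469 and 2498 in WT MI.

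The split of calls moved with the scaling of the libraries. Over all genes 3637 were called higher and 1232 lower, which became 2603 and 2159 with upper-quartile scaling and 2198 and 2447 with quantile normalization. For the members the split was 24 and 0, which became 20 and 3 under either scaling, the 3 being *Atf6*, *Dnajb9* and *Herpud1*. Of the 24 members called higher, 19 were called under each of 16 alternative settings that kept the threshold on the adjusted p alone, and the other 5 were *Hspa5*, *Dnajc3*, *Eif2ak3*, *Atf4* and *Asns*.

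**Figure D2:**
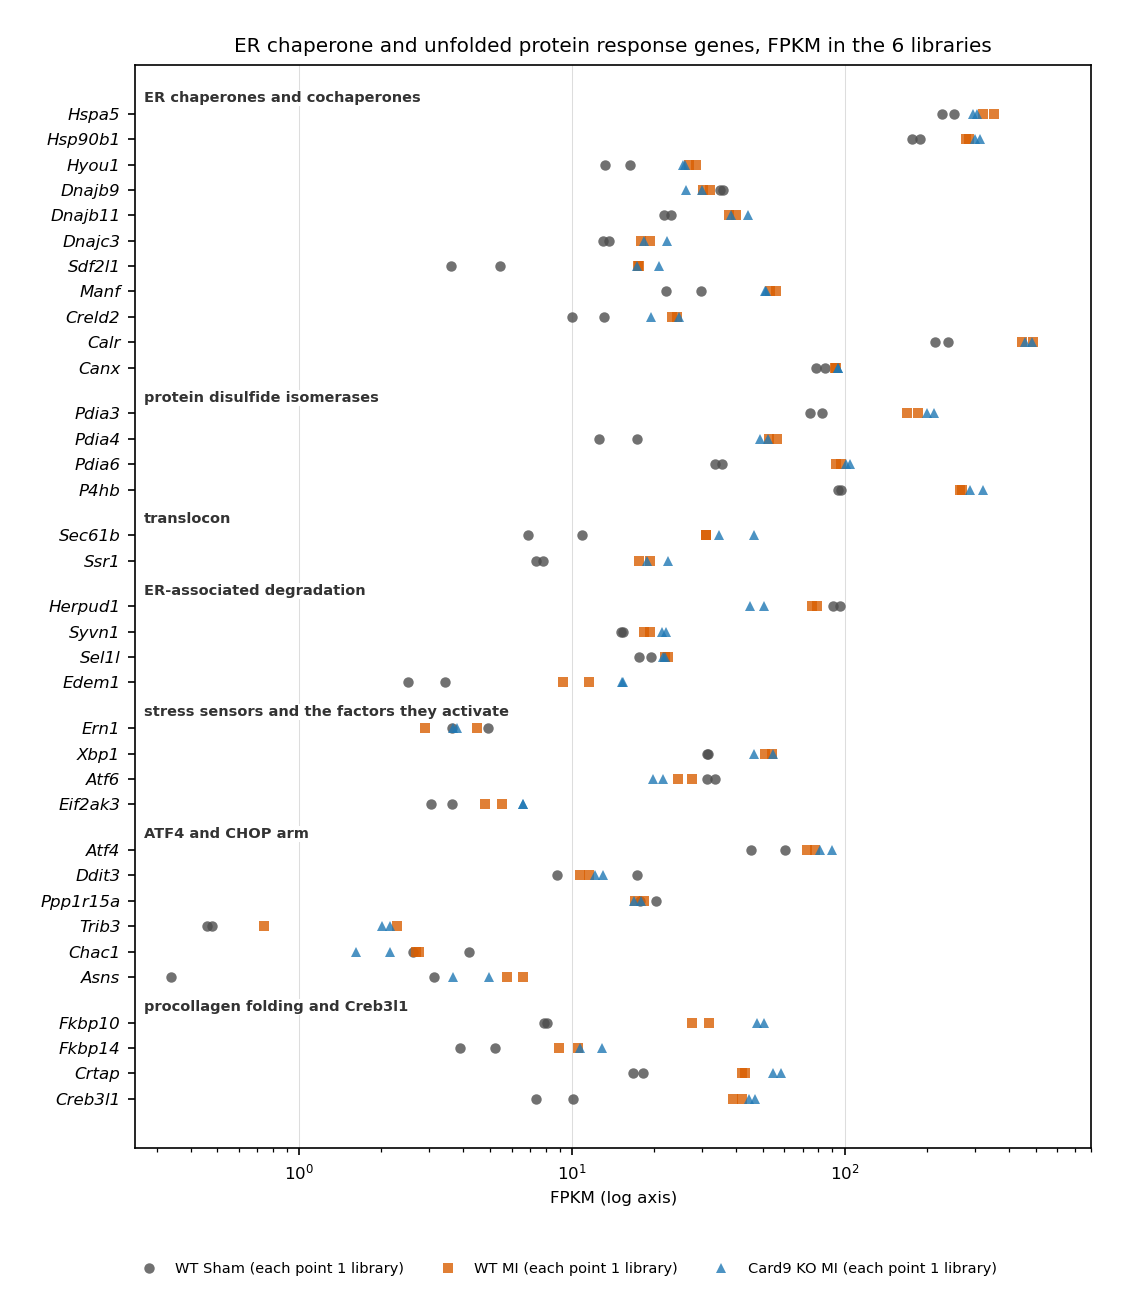
FPKM (x axis, log scale) of the 35 members in each of the 6 libraries, grouped by role; grey circles are WT Sham, orange squares WT MI and blue triangles *Card9* KO MI, each point 1 library. The disulfide isomerases and the procollagen folding genes of both infarct groups lie to the right of WT Sham, whereas *Atf6*, *Herpud1* and *Dnajb9* lie to the left.

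Among the ER chaperones and cochaperones, 9 of 11 were called higher in WT MI, where 27.7% of all genes were. The median over the group was 0.76 on the log2 scale, and 0.19 over all genes. With upper-quartile scaling 7 were called higher and 1 lower, and with quantile normalization 8 and 1. *Hspa5* (mm9 chromosome 2, 34627490 to 34632051), which encodes BiP, the HSP70 chaperone that also holds the sensors inactive, was at 252 and 226 FPKM in WT Sham, at 352 and 320 in WT MI, and at 294 and 305 in *Card9* KO MI. Both infarct groups lay above WT Sham without overlap, by 1.4-fold in WT MI (log2 fold change 0.49 ± 0.10 SE, adjusted p = 0.00633). Non-overlap of 2 against 2 libraries is common and is given here as description. Between the infarct groups it held for 30.8% of all genes upward and 21.9% downward in *Card9* KO MI. Against WT Sham that share was not counted. This call was lost with upper-quartile scaling (log2 fold change 0.27) and without WT MI replicate 1 (0.42). *Hsp90b1* (mm9 chromosome 10, 86152954 to 86168254), encoding the ER HSP90 GRP94, was at 188 and 177 FPKM in WT Sham, at 278 and 284 in WT MI, and at 312 and 301 in *Card9* KO MI. It rose 1.54-fold in WT MI (0.62 ± 0.08, adjusted p = 0.00115), with no overlap of either infarct group with WT Sham.

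*Calr* (mm9 chromosome 8, 87365749 to 87370833), encoding the lectin chaperone calreticulin, was at 239 and 214 FPKM in WT Sham, at 445 and 490 in WT MI, and at 484 and 456 in *Card9* KO MI. It rose 2.07-fold in WT MI (1.04 ± 0.10, adjusted p = 0.000243), and its infarct libraries overlapped each other but not WT Sham. *Canx*, encoding the membrane-bound partner calnexin, was at 84.4 and 78.2 FPKM in WT Sham, at 91.8 and 92.4 in WT MI, and at 94.5 and 94.5 in *Card9* KO MI. Libraries of *Canx* did not overlap between infarct groups and WT Sham, but its 1.13-fold difference in WT MI did not pass the test (0.18 ± 0.09, 95% confidence interval -0.02 to 0.38, adjusted p = 0.149) and turned to -0.03 with upper-quartile scaling. The promoter windows of both lectins hold an ERSE.

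The largest change of a chaperone gene was that of *Sdf2l1*, whose product works in a complex with BiP and its cochaperones, with 5.45 and 3.59 FPKM in WT Sham, at 17.5 and 17.6 in WT MI, and at 20.8 and 17.4 in *Card9* KO MI. It rose 3.88-fold in WT MI (1.77 ± 0.18, adjusted p = 0.000347), and the highest WT Sham library was below the lowest infarct library. Its WT Sham values rest on an estimated 19.1 and 12.0 fragments. *Manf*, encoding a factor that is retained in the ER and secreted under stress, was at 29.6 and 22.1 FPKM in WT Sham, at 55.9 and 53.2 in WT MI, and at 51.0 and 51.6 in *Card9* KO MI, and rose 2.11-fold in WT MI (1.06 ± 0.14, adjusted p = 0.00101). *Hyou1*, which encodes the nucleotide exchange factor of BiP, rose 1.87-fold (adjusted p = 0.00162) and *Creld2*, encoding an ER protein induced by stress, 2.06-fold (adjusted p = 0.0027).

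The J-domain cochaperones, which stimulate the ATPase of BiP, did not move together. *Dnajb11* was at 23.1 and 21.8 FPKM in WT Sham, at 37.7 and 40.0 in WT MI, and at 44.1 and 38.1 in *Card9* KO MI, and rose 1.73-fold in WT MI (0.76 ± 0.11, adjusted p = 0.00163). *Dnajc3* was at 13.0 and 13.6 FPKM in WT Sham, at 19.4 and 17.8 in WT MI, and at 22.3 and 18.3 in *Card9* KO MI, and rose 1.4-fold (0.45 ± 0.13, adjusted p = 0.0299). *Dnajb9*, whose product restrains IRE1, had the opposite order, with 35.7 and 34.7 FPKM in WT Sham, at 32.1 and 30.2 in WT MI, and at 26.2 and 29.9 in *Card9* KO MI. Its libraries did not overlap between either infarct group and WT Sham, with a log2 fold change in WT MI of -0.17 ± 0.11 that did not pass the test (adjusted p = 0.256). The call of *Dnajc3* was lost with quantile normalization (0.21), upper-quartile scaling (0.25), rescaling to the total without the 100 most abundant genes (0.31) and eBayes without trend (0.45), and when any 1 of the WT Sham and WT MI libraries was left out (0.40 to 0.51).

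All 4 protein disulfide isomerases, which form and rearrange disulfide bonds, were higher in WT MI, where 27.7% of all genes were. Their median log2 fold change was 1.46. *P4hb* (mm9 chromosome 11, 120421612 to 120434567), encoding PDI, which is also the beta subunit of collagen prolyl 4-hydroxylase, was at 94.2 and 96.7 FPKM in WT Sham, at 269 and 265 in WT MI, and at 322 and 286 in *Card9* KO MI. It rose 2.8-fold in WT MI (1.47 ± 0.09, adjusted p = 4.7e-05), and the gap between WT Sham and the infarct libraries was several times the spread within a group. *Pdia4* was at 17.3 and 12.6 FPKM in WT Sham, at 52.8 and 56.3 in WT MI, and at 52.3 and 49.0 in *Card9* KO MI, a 3.65-fold rise in WT MI (1.82 ± 0.15, adjusted p = 0.000135). *Pdia6*, at 35.4 and 33.4 FPKM in WT Sham, was at 93.0 and 96.7 in WT MI and at 101 and 104 in *Card9* KO MI, a 2.76-fold rise (1.44 ± 0.09, adjusted p = 4.79e-05). *Pdia3*, which works on glycoproteins held by calnexin and calreticulin, rose 2.25-fold (adjusted p = 0.000155). The isomerases thus rose while the membrane lectin *Canx* did not pass the test.

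Both members of the translocon, the channel through which new proteins enter the ER, were higher in WT MI, where 27.7% of all genes were. *Sec61b*, a subunit of the channel, was at 10.8 and 6.91 FPKM in WT Sham, at 31.1 and 31.0 in WT MI, and at 46.4 and 34.6 in *Card9* KO MI, and rose 3.5-fold in WT MI (1.73 ± 0.21, adjusted p = 0.000685). *Ssr1*, a subunit of the associated TRAP complex, was at 7.35 and 7.80 FPKM in WT Sham, at 19.4 and 17.6 in WT MI, and at 22.5 and 18.8 in *Card9* KO MI, and rose 2.44-fold (1.18 ± 0.13, adjusted p = 0.000506). In neither gene did an infarct library reach down to WT Sham.

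The 4 genes of ER-associated degradation, which exports misfolded proteins to the proteasome, had a median log2 fold change of 0.27 in WT MI. That of all genes was 0.19. Of the 4 genes, 1 was called higher in WT MI, where 27.7% of all genes were. That was *Edem1*, which recognises terminally misfolded glycoproteins, with 3.41 and 2.50 FPKM in WT Sham, at 9.30 and 11.5 in WT MI, and at 15.4 and 15.2 in *Card9* KO MI. It rose 3.52-fold in WT MI (1.53 ± 0.17, adjusted p = 0.000469), and the 3 groups did not overlap. *Syvn1*, the ubiquitin ligase HRD1, was at 15.1 and 15.4 FPKM in WT Sham, at 19.2 and 18.3 in WT MI, and at 21.4 and 22.0 in *Card9* KO MI, and its difference in WT MI did not pass the test (0.28 ± 0.11, adjusted p = 0.074). *Sel1l*, the adaptor of HRD1, did not pass the test in either infarct group, with 17.6 and 19.5 FPKM in WT Sham and 21.5 to 22.5 in the infarct libraries.

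*Herpud1* (mm9 chromosome 8, 96910338 to 96919277), which encodes a membrane protein that organises the HRD1 complex, had another order. It was at 96.3 and 90.8 FPKM in WT Sham, at 75.7 and 79.2 in WT MI, and at 44.9 and 50.4 in *Card9* KO MI. Its 3 groups did not overlap, with the lowest values in *Card9* KO MI. In WT MI its difference from WT Sham did not pass the test (-0.27 ± 0.10, 95% confidence interval -0.50 to -0.04, adjusted p = 0.0668), although it did with upper-quartile scaling (-0.48), quantile normalization (-0.42) and scaling without the 100 most abundant genes (-0.42).

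The sensors and the factors they activate were split. *Xbp1* (mm9 chromosome 11, 5420662 to 5425896), the target of IRE1, was at 31.5 and 31.3 FPKM in WT Sham, at 54.0 and 51.1 in WT MI, and at 54.4 and 46.4 in *Card9* KO MI, and rose 1.67-fold in WT MI (0.72 ± 0.11, adjusted p = 0.00184). *Ern1*, encoding IRE1 itself, was at 3.63 and 4.93 FPKM in WT Sham, at 2.90 and 4.50 in WT MI, and at 3.65 and 3.80 in *Card9* KO MI, so that its 3 groups overlapped. *Eif2ak3*, encoding PERK, was at 3.05 and 3.62 FPKM in WT Sham, at 5.54 and 4.80 in WT MI, and at 6.63 and 6.59 in *Card9* KO MI. Its 3 groups did not overlap, and its call in WT MI (0.51 ± 0.16, adjusted p = 0.0409) was lost under 13 of 16 alternative settings.

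*Atf6* (mm9 chromosome 1, 172634588 to 172797902) was at 33.3 and 31.3 FPKM in WT Sham, at 27.4 and 24.4 in WT MI, and at 19.7 and 21.6 in *Card9* KO MI. Its libraries were lower in both infarct groups without overlap, and in WT MI the difference did not pass the test (-0.31 ± 0.11, 95% confidence interval -0.57 to -0.05, adjusted p = 0.0663), except with upper-quartile scaling (-0.52), quantile normalization (-0.50) and scaling without the 100 most abundant genes (-0.46). *Xbp1* was thus the member of this group whose call in WT MI held under all 16 alternative settings.

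In the ATF4 and CHOP arm, 2 of 6 members were higher in WT MI, where 27.7% of all genes were. The median over the group was 0.21 on the log2 scale, near the 0.19 of all genes. *Atf4* (mm9 chromosome 15, 80085614 to 80087970), the transcription factor of the arm, was at 60.4 and 45.4 FPKM in WT Sham, at 77.4 and 72.9 in WT MI, and at 89.7 and 81.2 in *Card9* KO MI. It was 1.42-fold higher in WT MI (0.51 ± 0.14, adjusted p = 0.0238), a call lost under 8 of 16 alternative settings. *Asns*, encoding asparagine synthetase, was at 3.12 and 0.34 FPKM in WT Sham, at 5.78 and 6.60 in WT MI, and at 4.95 and 3.65 in *Card9* KO MI. Of its WT Sham values, the lower rests on an estimated 2.07 fragments, and both WT MI libraries lay above both WT Sham libraries. Its rise in WT MI (1.61 ± 0.46, adjusted p = 0.027) was lost under 4 of 15 settings. Its log2 fold change was 2.42 without WT Sham replicate 1 and 0.80 without WT Sham replicate 2, and both were called.

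*Ddit3*, *Ppp1r15a*, *Trib3* and *Chac1*, which like *Asns* are stress-induced genes downstream of ATF4, did not pass the test in WT MI. *Ddit3*, encoding CHOP, was at 17.3 and 8.84 FPKM in WT Sham, at 11.5 and 10.7 in WT MI, and at 13.0 and 12.1 in *Card9* KO MI, with both infarct groups inside the range of WT Sham. *Ppp1r15a*, encoding GADD34, which returns eIF2alpha to its unphosphorylated form, was at 20.3 and 17.7 FPKM in WT Sham, at 18.3 and 17.0 in WT MI, and at 17.9 and 16.9 in *Card9* KO MI, and the groups overlapped. *Trib3*, encoding a pseudokinase that binds ATF4, was at 0.46 and 0.48 FPKM in WT Sham, at 2.29 and 0.74 in WT MI, and at 2.15 and 2.01 in *Card9* KO MI. Both WT Sham values of *Trib3* rest on an estimated 2.94 fragments, so its size of change is not given as a ratio. *Chac1*, encoding an enzyme that degrades glutathione, was at 2.61 and 4.19 FPKM in WT Sham, at 2.67 and 2.75 in WT MI, and at 1.62 and 2.15 in *Card9* KO MI. *Ddit3* was called lower in WT MI without WT Sham replicate 2, its lower library.

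All 4 genes of procollagen folding, with *Creb3l1*, were higher in WT MI, where 27.7% of all genes were. Their median log2 fold change was 1.5. *Creb3l1* (mm9 chromosome 2, 91822485 to 91864659), encoding OASIS, a membrane-bound transcription factor of collagen-secreting cells, was at 10.1 and 7.35 FPKM in WT Sham, at 38.9 and 42.0 in WT MI, and at 46.9 and 44.5 in *Card9* KO MI. Its 4.64-fold rise in WT MI (2.11 ± 0.15, adjusted p = 7.19e-05) was the largest log2 fold change of the 35 members. *Fkbp10* (mm9 chromosome 11, 100277011 to 100286138), encoding the prolyl isomerase FKBP65 that folds procollagen, was at 8.06 and 7.90 FPKM in WT Sham, at 27.6 and 31.7 in WT MI, and at 50.7 and 47.6 in *Card9* KO MI. It rose 3.71-fold in WT MI (1.77 ± 0.11, adjusted p = 5.46e-05), and its 3 groups were each apart.

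*Crtap*, a partner of the collagen prolyl 3-hydroxylase, was at 16.7 and 18.2 FPKM in WT Sham, at 41.8 and 43.0 in WT MI, and at 58.4 and 54.6 in *Card9* KO MI. It rose 2.44-fold in WT MI (1.24 ± 0.10, adjusted p = 0.00014), again with 3 groups that did not overlap. *Fkbp14*, another ER prolyl isomerase, rose 2.14-fold (0.96 ± 0.18, adjusted p = 0.0048). Fibroblast markers moved with these members: 9 of 10 were called higher in WT MI, and their summed FPKM was 521 to 546 in WT Sham, 1540 to 2065 in WT MI and 3151 to 3284 in *Card9* KO MI. Macrophage markers did so too, with 10 of 10 called higher and sums of 356 to 415, 1443 to 1842 and 2130 to 2932. Their part in the members' change was not tested. Of 8 plasma cell markers, a cell type with an expanded ER, 5 stayed under 1 FPKM in every library, among them *Jchain* and *Tnfrsf17*, and *Ighm* was not listed. The whole list summed to 4.03 to 7.71 FPKM in WT Sham and 15.0 to 22.3 in the infarct libraries, of which *Sdc1* alone, which other cell types also express, made up 1.18 to 1.85 and 12.1 to 18.6. The other markers together summed to 2.85 to 5.86 FPKM in WT Sham and 2.84 to 3.78 in the infarct libraries.

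**Figure D3:**
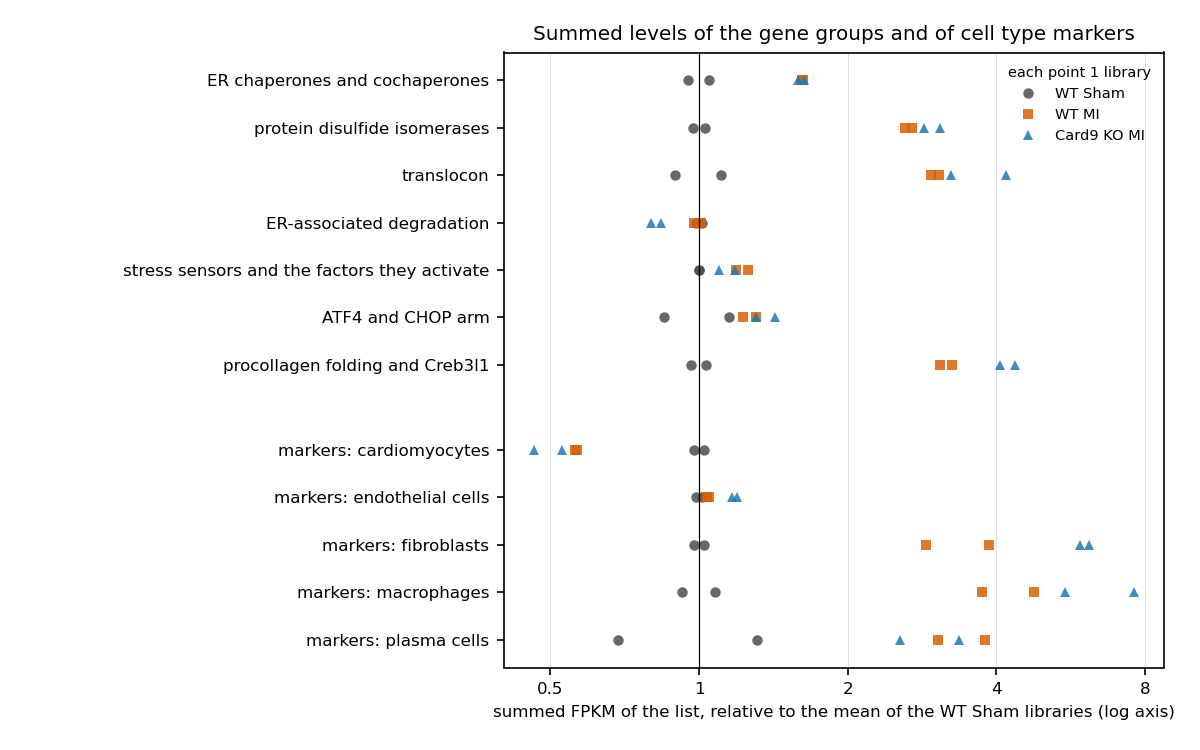
Summed FPKM of each group of members and of 5 lists of cell type markers, relative to the mean of the WT Sham libraries (x axis, log scale), each point 1 library; grey circles are WT Sham, orange squares WT MI and blue triangles *Card9* KO MI. The procollagen folding genes, isomerases and translocon lie to the right of WT Sham together with fibroblast and macrophage markers, the sum of the plasma cell markers does so through *Sdc1*, cardiomyocyte markers lie to the left, and the degradation genes of WT MI lie at about the WT Sham level.

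The wider pathway was described with lists of genes that are not members, beside 27.7% of all tested genes called higher in WT MI. Of 17 further genes of the translocon and signal peptidase, 15 were higher in WT MI, at a median of 0.75 on the log2 scale, and *Sec61a1*, the channel subunit, had the largest (1.83, adjusted p = 5.84e-05). All 14 genes of N-glycosylation and the calnexin cycle were higher, at a median of 0.72, led by *Stt3a*, a catalytic subunit of oligosaccharyltransferase (1.76). Of 11 further thiol oxidoreductases, 9 were higher, led by *Qsox1* (1.38). Of 15 further degradation genes tested, 7 were higher, at a median of 0.40, led by *Edem2* (1.26). Of 17 KDEL receptor and COPII genes, 10 were higher, at a median of 0.52, led by *Kdelr3*, a receptor that returns ER proteins from the Golgi (1.97). Of 14 further procollagen chaperones and hydroxylases, 12 were higher, at a median of 0.90, led by *Fkbp11* (2.76). *Fkbp11* was at 0.41 and 1.27 FPKM in WT Sham and at 8.28 and 14.7 in WT MI. Its size of change thus rests on low WT Sham values. With upper-quartile scaling and quantile normalization, the counts were 11 and 11 for the translocon list and 9 and 10 for glycosylation. The oxidoreductases had 9 and 9, and degradation 5 and 5. KDEL receptors and COPII had 9 and 9, and the procollagen list 10 and 10. Under either scaling 1 KDEL receptor and COPII gene was called lower. Over all 13120 genes, 2603 and 2198 were then called higher.

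The further ATF4 targets and eIF2alpha regulators formed the last list. Of the 21 tested, 14 were higher in WT MI (12 under upper-quartile scaling, 10 under quantile normalization) and 1, *Vldlr*, was lower, at a median of 0.73. *Gdf15*, a stress-induced cytokine, had the largest value, with 7.11 and 1.86 FPKM in WT Sham, at 28.7 and 40.5 in WT MI, and at 23.9 and 26.1 in *Card9* KO MI (2.87 ± 0.42, adjusted p = 0.00164). Of all 109 tested genes of these lists *Vldlr* was also the only one lower in WT MI at an unadjusted p below 0.05 (1 gene). The difference between the members' count and the count of this list was not tested.

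*Card9* KO MI was next set beside WT Sham, a comparison that shares its WT Sham libraries with the one above. Of the 35 members, 25 were called higher, where 34.8% of all genes were, and 3 lower, where 14.3% of all genes were. The median log2 fold change was 0.84 over the members and 0.24 over all genes. Over all genes 4569 were higher and 1875 lower, which became 3230 and 2884 with upper-quartile scaling and 2755 and 3444 with quantile normalization, and for the members the split of 25 and 3 became 22 and 5, and 20 and 5. The changes ran from -0.96 in *Herpud1* to 2.48 in *Fkbp10* on the log2 scale.

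The chaperones had 9 members higher in *Card9* KO MI, which became 7 under either upper-quartile scaling or quantile normalization, as *Hspa5* (0.33, and 0.07 with upper-quartile scaling) and *Dnajc3* (0.57) lost their calls. *Hspa5* lost its call under 7 of 16 settings and *Dnajc3* under 3. *Dnajb9* fell by 0.32 on the log2 scale (adjusted p = 0.0415), a call lost under 8 of 16 alternative settings. All 4 isomerases, both translocon members and all 4 procollagen folding genes were higher, where 34.8% of all genes were. *Fkbp10* rose 6.16-fold (2.48 ± 0.11, adjusted p = 9.63e-06), where it had risen 3.71-fold in WT MI, and *Creb3l1* had a log2 fold change of 2.28 beside 2.11. Of the wider lists, 17 of 17 translocon and signal peptidase genes, 12 of 14 glycosylation genes, 10 of 11 oxidoreductases, 8 of 15 degradation genes, 12 of 17 KDEL receptor and COPII genes, 17 of 21 ATF4 targets and regulators and 13 of 14 procollagen genes were higher. With upper-quartile scaling these counts were 11, 10, 10, 6, 7, 17 and 10 in the same order, and with quantile normalization 13, 11, 9, 5, 10, 15 and 12. Called lower were 1 KDEL receptor and COPII gene and 1 gene of the ATF4 list. Upper-quartile scaling gave 2 degradation, 1 KDEL receptor and COPII, 3 ATF4-list and 1 procollagen gene lower. Quantile normalization gave 1, 1, 3 and 1 lower in that order. Among the isomerases and lectins, *Pdia3* had 1.38 beside 1.16, *P4hb* 1.66 beside 1.47, and *Calr* 1.05 beside 1.04.

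*Herpud1* was lower in *Card9* KO MI than in WT Sham, at 0.509 of its level (-0.96 ± 0.10, adjusted p = 0.000196), and *Atf6* at 0.64 of its level (-0.62 ± 0.11, adjusted p = 0.00302). Both were called under each of 16 alternative settings. *Syvn1*, by contrast, was higher (0.48 ± 0.11, adjusted p = 0.00738), a call lost with upper-quartile scaling (0.24) and quantile normalization (0.22). *Eif2ak3* (0.81, adjusted p = 0.0044) and *Atf4* (0.69, adjusted p = 0.00484) were higher too, the call of *Eif2ak3* being lost with quantile normalization (0.40). *Trib3*, with WT Sham at the limit of counting, was called higher (adjusted p = 0.0237), a call lost under 5 of 15 settings. *Asns* did not pass the test (1.16, 95% confidence interval 0.10 to 2.22, adjusted p = 0.067), nor did *Chac1*, whose libraries were lower without overlap (-0.59, adjusted p = 0.0651). Cardiomyocyte markers, of which 10 of 10 were lower in *Card9* KO MI and 8 of 10 in WT MI, moved with *Herpud1* and *Atf6*, and their part in these differences was not tested.

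**Figure D4:**
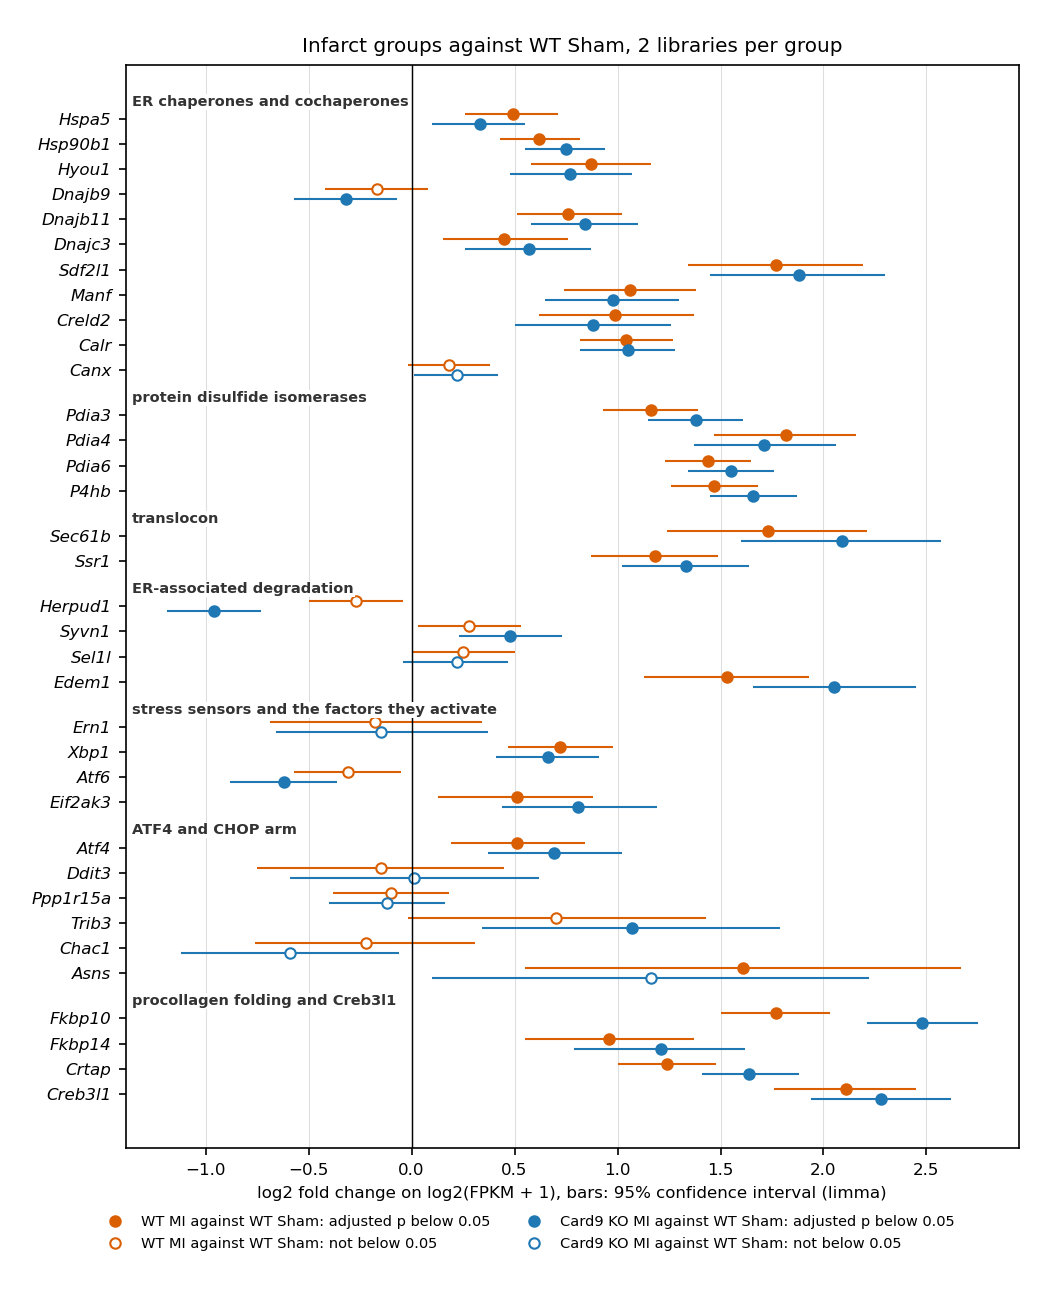
Log2 fold changes on log2(FPKM + 1) against WT Sham (x axis) of the 35 members, orange for WT MI and blue for *Card9* KO MI, with bars for the 95% confidence interval and filled points for an adjusted p below 0.05. Values reach 2.11 for *Creb3l1* in WT MI and 2.48 for *Fkbp10* in *Card9* KO MI, and *Herpud1*, at -0.27 and -0.96, lies on the other side of 0.

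To ask whether the group labelled *Card9* KO differed after infarction, *Card9* KO MI was compared with WT MI. Of the 35 members, 1 was called higher, *Fkbp10*, and 1 lower, *Herpud1*, where 0.816% of all genes were called higher and 0.587% were called lower. The members had a median log2 fold change of 0.11, and all genes one of 0.04. The libraries of the groups did not overlap in 15 members that were higher and 10 that were lower, beside 30.8% and 21.9% of all genes. The 95% confidence interval lay within a 2-fold change in either direction for 33 of 35 members, the exceptions being *Trib3* and *Asns*, and within 0.5 on the log2 scale for 19.

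*Fkbp10*, at 27.6 and 31.7 FPKM in WT MI and at 50.7 and 47.6 in *Card9* KO MI, was 1.66-fold higher (0.71 ± 0.11, 95% confidence interval 0.45 to 0.98, adjusted p = 0.038). *Herpud1*, at 75.7 and 79.2 FPKM in WT MI and at 44.9 and 50.4 in *Card9* KO MI, was at 0.615 of its WT MI level (-0.69 ± 0.10, 95% confidence interval -0.92 to -0.46, adjusted p = 0.0274). In both genes the groups did not overlap and the direction held under all 16 alternative settings. The calls did not: that of *Fkbp10* was lost under 11 of them, with adjusted p from 0.026 to 0.271, and that of *Herpud1* under 10, with adjusted p from 0.0203 to 0.193. Each call was lost when any 1 of the 6 libraries was left out. With the replicate number as a block in the fit, 0 members were called in either direction.

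A few more members reached an unadjusted p below 0.05 only. *Edem1* was higher in *Card9* KO MI (0.52, 95% confidence interval 0.13 to 0.92, adjusted p = 0.151), as was *Crtap* (0.40, 0.17 to 0.64, adjusted p = 0.097), and *Atf6* was lower (-0.31, -0.57 to -0.05, adjusted p = 0.187). The other chaperones were close in level between the infarct groups: *Calr* had a log2 fold change of 0.01 with an interval of -0.22 to 0.24, and *Hspa5* one of -0.16 with an interval of -0.39 to 0.06. In the lists of the wider pathway, 0 of 109 tested genes passed limma's test between the infarct groups, while 20 were higher and 2 lower at an unadjusted p below 0.05, beside 11.5% and 8.57% of all genes. With quantile normalization 1 gene of these lists, *P4ha3*, was called higher. Of 10 fibroblast markers, 8 had a positive and 2 a negative value, with 4 called higher in *Card9* KO MI and a median log2 fold change of 0.52. At an unadjusted p below 0.05, 5 of them were higher and 1 lower. Of 10 macrophage markers 0 passed limma's test and 6 were higher at an unadjusted p below 0.05, at a median of 0.73. With quantile normalization, 2 macrophage markers and 5 fibroblast markers were called higher. The part of both lists in the difference of *Fkbp10* was not tested. Of 10 cardiomyocyte markers 0 passed limma's test, 9 had a negative value and 4 were lower at an unadjusted p below 0.05, at a median of -0.17. Their part in the differences of *Herpud1* and *Atf6* was not tested.

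**Figure D5:**
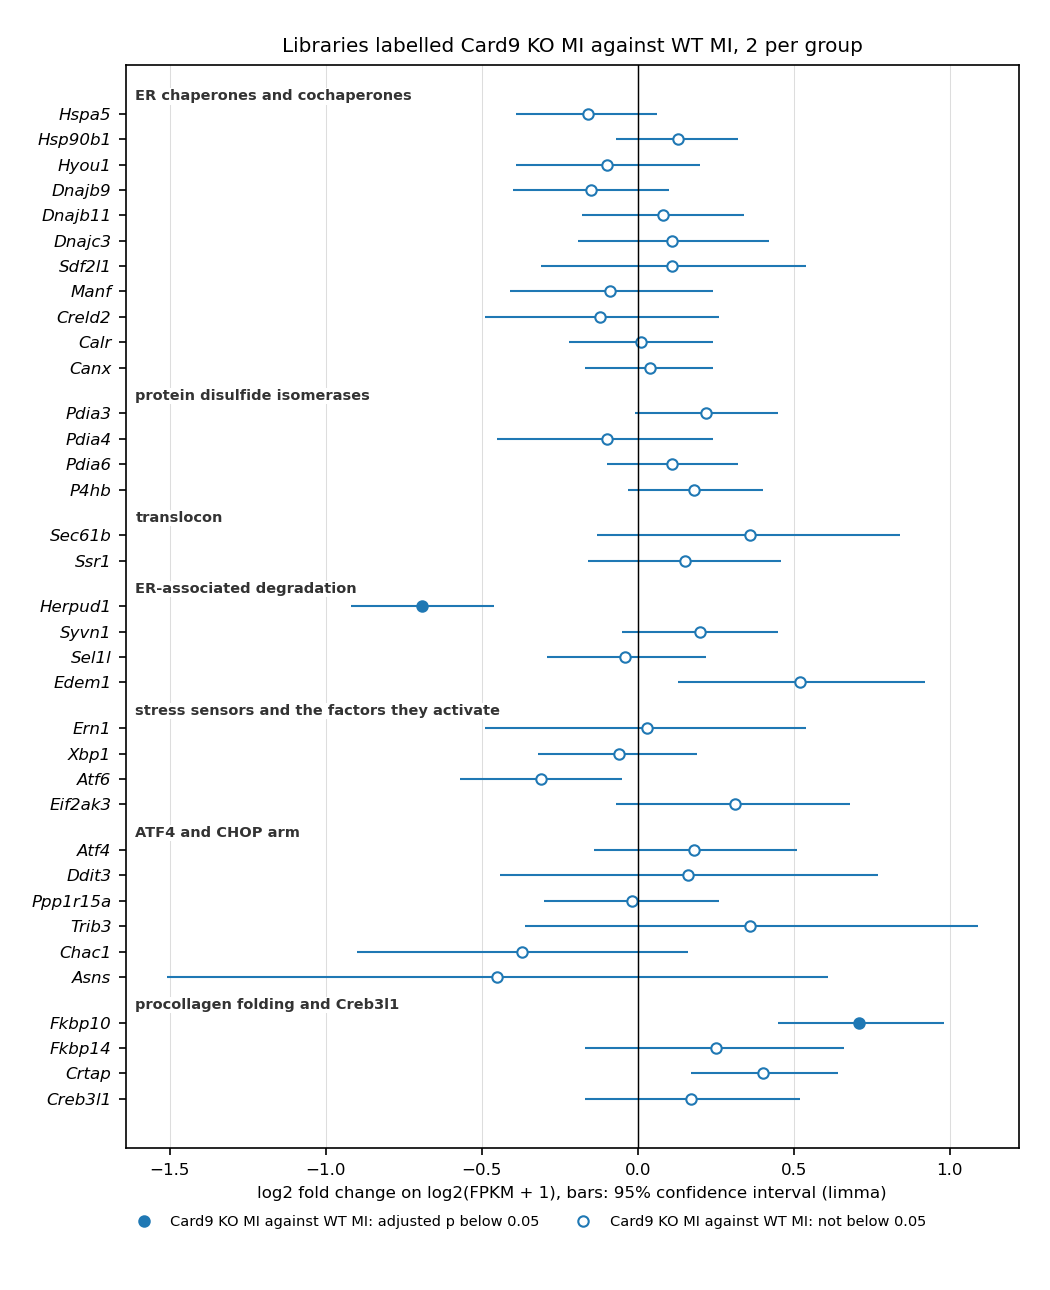
Log2 fold changes of the 35 members in *Card9* KO MI against WT MI (x axis, on log2(FPKM + 1)), with bars for the 95% confidence interval and filled points for an adjusted p below 0.05. *Fkbp10* at 0.71 and *Herpud1* at -0.69 are the filled points, and the interval of *Asns* is the widest.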

How the data were processed

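Heart RNA of 6 mouse libraries, 2 in each of 3 groups, was analysed. Per the labels, mRNA was enriched with oligo(dT) beads, made into TruSeq libraries and mapped to mm9. BWA and Bowtie2 are named in the submitters' processing notes. The authors deposited 1 FPKM value per gene and library, to 2 decimals, for genes above 0. A gene not listed was set to 0. The annotation is not given in the sources used here. How reads of overlapping genes such as *Ddit3* and *Mars* or *Fkbp10* and *Nt5c3l* were assigned cannot be seen from these values.

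The filter (1 FPKM or more in 2 or more libraries) left the genes that were tested on log2(FPKM + 1) with limma 3.58.1 (lmFit, eBayes with trend) in R 4.3.3, the 3 groups in one fit, with Benjamini-Hochberg adjustment over 13120 genes and calls at an adjusted p below 0.05. A fold change on this scale understates changes of low genes, and ratios are of mean FPKM. In the text, fold changes of members are given where the libraries of 2 groups did not overlap. *Calr* between the infarct groups and *Ddit3* in WT MI against WT Sham are exceptions, where they did. An exact permutation test of 2 against 2 libraries cannot reach 0.05, and none was run. The labels do not say that libraries of a group came from separate mice, so p-values measure the spread between these libraries. The script was tested on simulated data. Fragments were estimated from the spacing of low FPKM values in 3660 genes with 1 transcript, and since 70.4% to 74.9% of these values were whole within 0.15 fragments, counts were not rebuilt. Estimates cover counting error only.

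All 35 members were given values, and from each wider list the called gene with the largest change in WT MI against WT Sham was named (0 were called in *Card9* KO MI against WT MI). *Vldlr*, *P4ha3*, the ranges of *Ddit3* and *Trib3* over the settings, the overlapping neighbours and the marker genes named were chosen after their values were seen. The members and lists were chosen with earlier results of these data known. Motifs were searched in Python 3.11.15. Deviations of libraries with the same replicate number were not correlated between groups (-0.008 to 0.02), and the main fit used no pairing.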

Additional observations from a re-analysis of the deposited data

How the results depend on the processing

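In WT MI against WT Sham, the members called higher numbered 14 when a log2 fold change of at least 1 was also required, and the members called lower, 0, became 3 under upper-quartile scaling, 3 under quantile normalization, 2 with scaling without the 100 most abundant genes, and 0 to 1 when each library was left out, the 1 without WT Sham replicate 2. In *Card9* KO MI against WT Sham, 14 were higher with that fold threshold and 0 lower, and upper-quartile scaling gave 5 lower and quantile normalization gave 5, *Chac1* and *Ppp1r15a* being added. In *Card9* KO MI against WT MI, *Fkbp10* was no longer called, leaving 0 members higher, with 0.1 FPKM added, with no filter, with only the groups compared, with eBayes without trend, with the replicate block and with the fold threshold. *Herpud1* was no longer called, leaving 0 lower, in the same settings except the added 0.1, and leaving out each library gave 0 to 0 in both directions. *Canx* turned to -0.03, -0.04 and -0.0008 with upper-quartile scaling in the 3 comparisons in that order, and *Sel1l* in *Card9* KO MI against WT Sham turned to -0.03 with that scaling and -0.04 with quantile normalization. The cause of these changes was not tested.

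The replicate block gave 23 members higher and 0 lower in WT MI against WT Sham, 25 and 2 in *Card9* KO MI against WT Sham, and 0 and 0 in *Card9* KO MI against WT MI, with 45 of all genes higher and 26 lower in the last in place of 107 and 77. The labels do not say whether the same number marks a shared animal or batch, so the block is given as a count only. Without WT MI replicate 1, 19 members were higher in WT MI. The median log2 fold change of the members ranged over the alternatives from 0.56 to 0.91 in WT MI against WT Sham, 0.59 to 0.94 in *Card9* KO MI against WT Sham, and 0.02 to 0.15 between the infarct groups. Over all genes, calls between the infarct groups ranged from 3 to 200 higher and 5 to 136 lower. Among the members, depth limited *Trib3* and *Asns* most, whose WT Sham levels rest on about 3 fragments or fewer in at least 1 library. In WT Sham, *Sdf2l1* rests on an estimated 19.1 and 12.0 fragments and *Chac1* on 13.5 and 20.7. Fragments were not estimated for *Sec61b*, whose longest coding transcript has 564 bases.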

Other observations

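Neutrophil markers differed within WT MI, with sums of 212 and 93.2 FPKM in its libraries, beside 5.4 to 7.64 in WT Sham and 46.7 to 59.8 in *Card9* KO MI. *Ly6g* and *Camp* were not listed in any library. *Trib3*, at 2.29 and 0.74 FPKM in WT MI, was the member whose WT MI libraries stood farthest apart in ratio. Markers of dividing cells summed to 17.5 to 22.9 FPKM in WT Sham, 75.5 to 93.5 in WT MI and 127 to 157 in *Card9* KO MI, and T and B cell markers to 8.27 to 13.8 FPKM over all libraries. Endothelial markers summed to 393 to 404, 413 to 418 and 465 to 476 FPKM.

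Relative to all FPKM of a library, the 35 members took 0.283% to 0.307% in WT Sham, 0.52% to 0.524% in WT MI and 0.535% to 0.559% in *Card9* KO MI. The summed FPKM of the 4 degradation members was 104 and 109 in *Card9* KO MI beside 127 to 132 in the other libraries, through *Herpud1*, while the other 3 together summed to 36.1 and 37.4 FPKM in WT Sham, to 51.1 and 51.8 in WT MI and to 58.7 in each *Card9* KO MI library.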
